A study of Drosophila melanogaster with 4 samples.

Results

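The Antennapedia complex is a stretch of chromosome arm 3R that holds the Hox genes lab, pb, Dfd, Scr and Antp together with ftz. Its binding by GAGA factor (GAF), a zinc-finger protein encoded by Trl that recognises GA-rich DNA, is described here from ChIP-seq. The locus was taken as 3R:2470000-2840000 on FlyBase release 5, a window of 370 kb whose bounds are set by position and not by any measured value. The locus was, however, chosen with earlier results of these data known. The members are the regions of enrichment, called clusters here, that share at least 1 bp with this window. The authors' combined list held 22 of them out of 6474, the list of replicate 1 held 18 out of 5694, and the list of replicate 2 held 15 out of 5709. Each list was counted on its own, so the same place can be a member in all 3.

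The chromatin came from whole embryos of the wild-type strain Oregon-R aged 14 to 16 hours, without any allele or treatment that sets groups apart. Of the 4 libraries, 2 were GAF ChIP replicates and 2 were inputs, which were not analysed here. All cell types of the embryo were mixed, so a region bound in a few segments cannot be told apart from a region bound weakly everywhere. Whether each replicate had its own embryo collection is not stated in the labels, so the spread given here may be technical only.

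Hox genes encode homeodomain transcription factors that give the segments of the body their identity. In flies their order along the chromosome broadly, though not strictly, follows the order of the segments they act in. lab and pb act in the head, Dfd in the segments that form the mandible and maxilla, Scr in the labial and first thoracic segments, and Antp in the thorax. ftz lies among them and has a homeodomain, but acts as a pair-rule gene in setting up segments and has no homeotic role in flies. GAF is found at many developmental genes, where it is known to help open chromatin and to act with Polycomb and Trithorax group proteins, which keep Hox genes silent or active in the right segments.

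The coordinate of the 6 members rises in the order lab, pb, Dfd, Scr, ftz and Antp, so the low end of the window is called the lab end and the high end the Antp end. A RefSeq gene table of release 6, sorted by the start coordinate of each gene, gave the same order and 43 genes from lab to Antp. Of these, 19 were protein coding, 16 lncRNAs, 2 miRNAs, 4 tRNAs and 2 genes of signal recognition particle RNA. Genes are called between 2 members by this order of starts alone, so a gene named here may overlap a member. Between lab and pb lay Edg84A and 7 genes of the Ccp84A family, which encode cuticle proteins, and 1 lncRNA. Among the genes between pb and Dfd were zen and bcd, homeobox genes that act in the early embryo, zen2, a relative of zen, and Ama, which encodes an immunoglobulin-domain protein of the cell surface. The miRNA gene mir-10 lay between Dfd and Scr, while 6 lncRNAs lay between Scr and ftz and 3 between ftz and Antp. Release 6 positions were not converted, so the clusters below are placed by release 5 position and by distance from the lab end, and no cluster is assigned to a gene.

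GAF occupancy of the complex was uneven. The strongest cluster of the combined list ran from 3R:2616213-2618648, 146.2 kb from the lab end, with a score of 3.48582. The score is the authors' own signed value per region, above 0 for enrichment. Its scale is not stated, so scores are given as values, ranks and differences without fold changes. The replicates scored this place 3.25 and 3.75, which is 3.50 ± 0.35 (mean ± SD, n = 2). It ranked 378 of the 6474 combined clusters, so 94.2% of the list lay at or below it.

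The second strongest cluster lay near the Antp end, from 3R:2823844-2827959, 353.8 kb along. Its replicate scores were 3.14 and 3.47 (3.31 ± 0.23, n = 2), and its combined score of 3.28 exceeded or equalled 91.9% of the list. These 2 of the 22 clusters were in the top 10% of the combined list, and 4 of the 22 were in its lowest 10%. The third, from 3R:2635384-2637725, scored 2.88 and 2.76 in the replicates (2.82 ± 0.09, n = 2). The next, from 3R:2673313-2676905, scored 2.66 and 2.73 (2.69 ± 0.05, n = 2). The 2 strongest places differed in mean by less than the SD of 0.35 at the first. Within each replicate, however, the first scored higher than the second (3.25 over 3.14 and 3.75 over 3.47). The 2 after them differed by more than their own SDs, but by less than the spread of 0.170 found over all shared places of the complex.

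**Figure D1:**
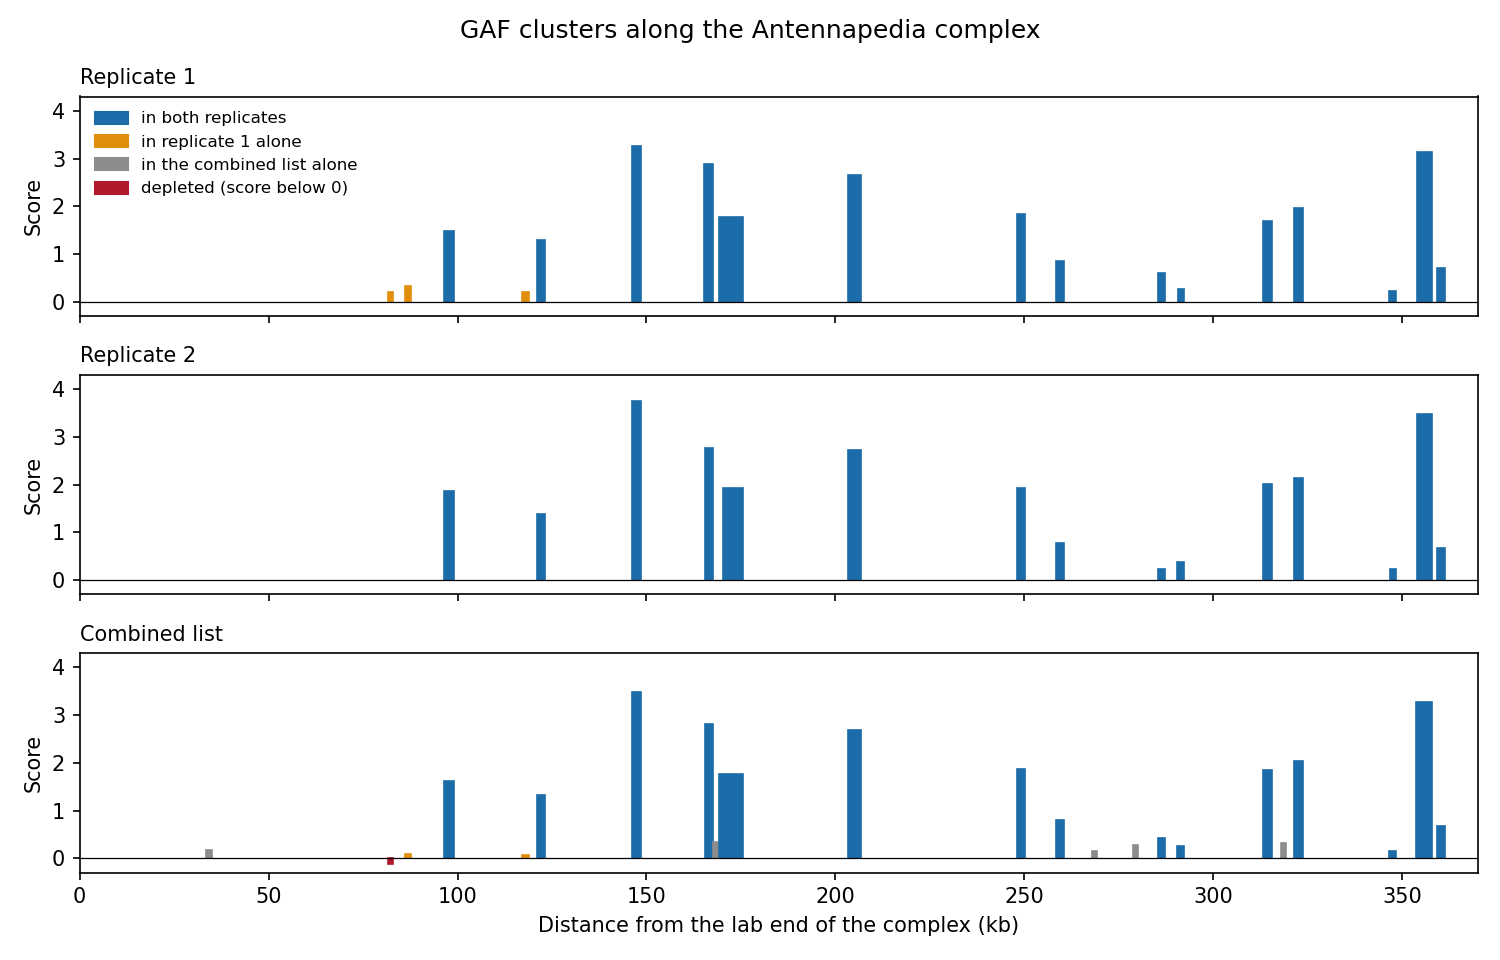
Scores of GAF clusters (y axis, the authors' score) against distance from the lab end of the complex in kb (x axis), for replicate 1, replicate 2 and the combined list. Each bar is 1 cluster drawn to its true width, coloured by the replicates that hold it. The 15 clusters of replicate 2 all recur in replicate 1, and no cluster found in both lies in the first 96.4 kb.

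A further 6 places were strong in the sense that their combined score reached the median of the whole combined list, 1.07. From 3R:2791522-2793711 the replicates scored 1.96 and 2.14 (2.05 ± 0.13, n = 2). From 3R:2717992-2720343 they scored 1.83 and 1.94 (1.88 ± 0.08, n = 2). These places lay 321.5 and 248.0 kb from the lab end, both on the Antp side of the midpoint.

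The cluster from 3R:2783184-2785591 scored 1.69 and 2.01 (1.85 ± 0.23, n = 2). The cluster from 3R:2639272-2645676 scored 1.78 and 1.92 (1.85 ± 0.10, n = 2). The cluster from 3R:2566444-2569151 scored 1.48 and 1.87 (1.67 ± 0.27, n = 2). The last 2 lay on the lab side of the midpoint. The means of these 3 lay closer together than the SD of 0.27 at the last, but the last scored lowest of the 3 in each replicate.

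The cluster from 3R:2591062-2593271 scored 1.29 and 1.38 (1.34 ± 0.06, n = 2) and was the weakest of the 10 strong ones. All 10 were overlapped by a cluster in both replicates. Across the whole combined list, support and score were also linked. Median scores there were 1.47 with support from both, 0.182 from 1 and 0.328 from neither. The share of all strong combined clusters with such support was not computed, so full support cannot be called particular to the complex. The strong clusters were 10 of 22 (45.5%, exact Clopper-Pearson 95% interval 24.4 to 67.8%), where the median gives 50% of the whole list by construction. In the replicates 9 of 18 and 10 of 15 clusters reached the median of their own list. The difference between those counts is 1 place, the cluster that starts at 2591063 in replicate 1, whose score of 1.29 fell just under that list's median of 1.31.

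The other 12 combined clusters scored from 0.0744 to 0.811. Of these, 5 were overlapped by both replicates. The highest, from 3R:2728365-2730483, scored 0.859 and 0.777 in the replicates (0.818 ± 0.058, n = 2). The next, from 3R:2829264-2831314, scored 0.701 and 0.664 (0.683 ± 0.026, n = 2) and lay 1304 bp past the second strongest cluster of the complex. The remaining 3 were from 3R:2755361-2757373, from 3R:2760387-2762337 and from 3R:2816698-2818508, with mean replicate scores of 0.421, 0.325 and 0.226.

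In the combined list, 2 clusters were overlapped by replicate 1 alone. From 3R:2556025-2557732 replicate 1 scored 0.333 and the combined list 0.0887. From 3R:2587092-2588890 replicate 1 scored 0.200 and the combined list 0.0744. These were the 2 lowest combined scores of the complex.

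A further 5 combined clusters were overlapped by neither replicate. They lay at 3R:2503554-2504921, 3R:2637758-2639035, 3R:2737949-2739209, 3R:2748719-2750018 and 3R:2788057-2789286. Their scores were 0.182, 0.343, 0.150, 0.284 and 0.318 in this order, with no replicate value to set beside them. They were the 5 narrowest of the 22, from 1230 to 1368 bp, and 4 were under 1301 bp, the smallest width found anywhere in the replicate lists. These 4 of 22 were 18.2% (interval 5.19 to 40.3%), and the 6.89% of the whole combined list under that width lay within the interval. Clusters without support were narrow across the whole combined list too. Their median width there was 1226 bp, against 2362.5 bp for clusters overlapped by both replicates.

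Counted by support, 15 of 22 combined clusters of the complex were overlapped by both replicates (68.2%, interval 45.1 to 86.1%), against 79.5% of the whole list. The 2 overlapped by 1 replicate were 9.09% (interval 1.12 to 29.2%), against 11.2%. The 5 overlapped by neither were 22.7% (interval 7.82 to 45.4%), against 9.21%. The share in the whole list lay within the interval at the complex in all 3 cases, so no departure was detectable with 22 clusters. These intervals are exact, cover counting error only and treat clusters as independent.

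Clusters of the complex that were wider also scored higher. The clusters of the complex had a median width of 2085 bp in the combined list, 2186 bp in replicate 1 and 2290 bp in replicate 2. The rest of the 5 large arms, 2L, 2R, 3L, 3R and X, had medians of 2215, 2230 and 2236 bp. Of the 22, 19 were narrower than 3 kb. The widest was the cluster from 3R:2639272-2645676 at 6405 bp, followed by that from 3R:2823844-2827959 at 4116 bp and that from 3R:2673313-2676905 at 3593 bp. The widest was therefore 8th by score, while the strongest was 2436 bp wide. Spearman's rho of width and score across clusters of the complex was 0.815 in the combined list (n = 22), 0.866 in replicate 1 (n = 18) and 0.764 in replicate 2 (n = 15). Over the whole lists it was 0.794, 0.816 and 0.809. Each point takes its width and its score from the same list, and the combined list draws on both replicates, so these are descriptions.

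**Figure D2:**
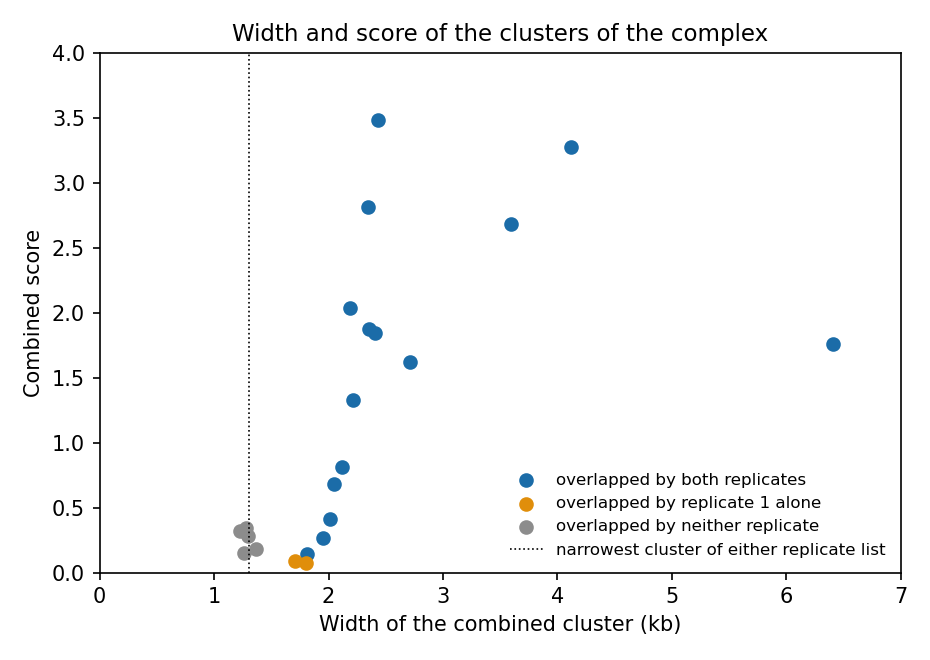
Combined score (y axis, the authors' score) against width in kb (x axis) of the 22 combined clusters of the complex, coloured by the replicates that overlap them. The 5 clusters found in neither replicate sit at widths from 1230 to 1368 bp, around the dotted line at 1301 bp, and the widest cluster, at 6405 bp, scored 1.76.

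The replicates were then compared along the complex. All 15 clusters of replicate 2 were overlapped by a cluster of replicate 1 (100%, interval 78.2 to 100%), against 91.7% of the whole replicate 2 list. In the other direction 15 of 18 clusters of replicate 1 were overlapped by replicate 2 (83.3%, interval 58.6 to 96.4%), against 92.3% of the whole list. The 3 clusters of replicate 1 alone were from 3R:2551707-2553015, from 3R:2555995-2557776 and from 3R:2587121-2588857. They scored 0.195, 0.333 and 0.200, and at most 12.9% of the replicate 1 list scored as low or lower. All 3 lay on the lab side, between 81.7 and 117.1 kb from that end.

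The 15 shared places were matched 1 to 1. Their scores ranked nearly alike, with a Spearman's rho of 0.986 across 15 places, against 0.958 across 5109 pairs of the whole lists. Replicate 2 scored higher at 11 of 15 places, and its median excess was 0.110, against 58.0% of all pairs and a median excess of 0.0434. The spread of a place between replicates was 0.170 (within-cluster SD, n = 2), against 0.199 over all pairs. The largest difference was at the strongest cluster, where replicate 2 was higher by 0.496. The second largest was at the cluster that starts at 2566462 in replicate 1, where replicate 2 was higher by 0.384. The third ran the other way: at the place from 3R:2755363-2757392 in replicate 1, replicate 2 was lower, at 0.231 against 0.610.

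**Figure D3:**
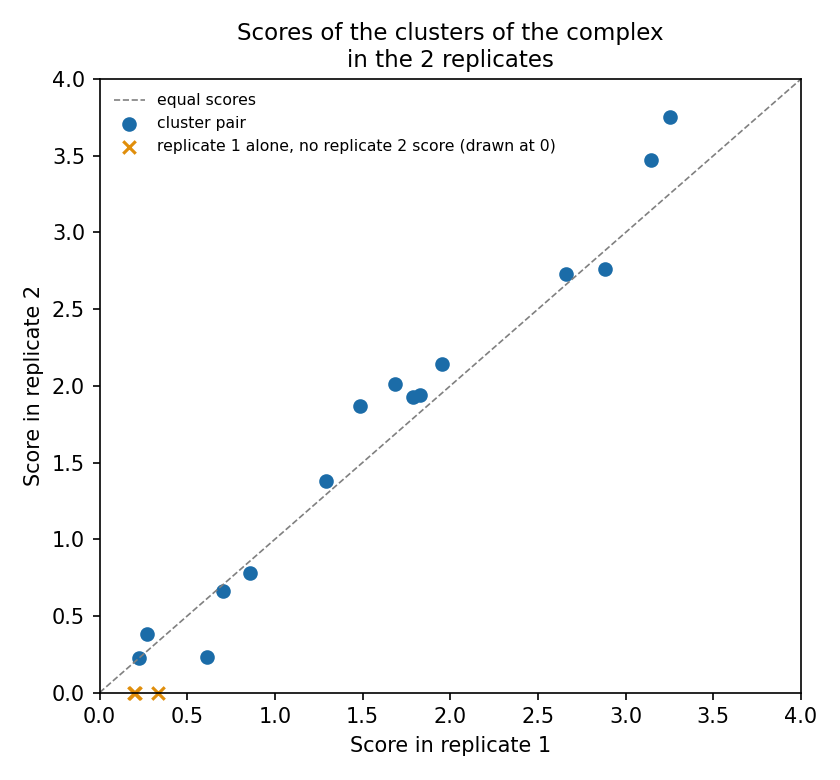
Score in replicate 2 (y axis) against score in replicate 1 (x axis) for the 15 clusters of the complex paired 1 to 1, with the line of equal scores. Replicate 2 is higher at 11 of 15 places, and the crosses mark the 3 clusters of replicate 1 that have no counterpart, drawn at 0 because no score exists.

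Cluster edges also recurred closely. The median shift between replicates was 34 bp at the start and 17 bp at the end of a place, against 28 bp at both edges over all pairs. At 12 of 15 places the shared sequence made up at least 90% of the wider cluster, against 4290 of 5109 pairs of the whole lists. The exceptions were the widest place and 2 weak ones. In the widest, replicate 1 began at 2639252 and replicate 2 began 1139 bp further on at 2640391, while the ends lay 25 bp apart. From 3R:2816677-2818482 in replicate 1, replicate 2 was narrower by 379 bp at nearly the same score (0.225 and 0.227). From 3R:2760608-2762281 in replicate 1, replicate 2 began 221 bp earlier.

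The combined list took in nearly every replicate cluster of the complex. It overlapped 17 of the 18 of replicate 1, against 98.2% of that whole list, and all 15 of replicate 2, against 97.7%. The combined scores lay close to the replicate means. At all 15 shared places the combined score was below the mean of both replicates, by 0.00431 to 0.0929, with a median difference of -0.0111. How often this held over the whole lists was not computed, so it cannot be called particular to the complex. The largest gap of this kind was again at the widest cluster, where the mean was 1.85 and the combined score 1.76. How the authors combined the replicates is not given here.

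Gaps between the clusters were near those of the large arms in median length in the combined list and replicate 1, and longer in replicate 2. The combined list left 21 gaps inside the complex, with a median of 8.02 kb, against 8.39 kb on the large arms. Replicate 1 had 17 gaps with a median of 8.69 kb, and replicate 2 had 14 with a median of 18.8 kb, against 9.65 and 9.55 kb on the large arms. Gaps over 20 kb were 6 of 21 in the combined list, 6 of 17 in replicate 1 and 7 of 14 in replicate 2. On the large arms 25.1%, 29.1% and 28.9% of gaps were over 20 kb. No interval was computed for these counts.

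The longest gap inside the complex in the combined list was from 3R:2504922-2556024, at 51.1 kb, and 92.8% of the gaps on the large arms were as long or shorter. It is bounded on its low side by a cluster found in neither replicate and on its high side by one found in replicate 1 alone. The second was from 3R:2676906-2717991, at 41.1 kb, between the clusters ranked 4 and 6 by score in the complex, and was the longest in either replicate list, also at 41.1 kb. The third was from 3R:2645677-2673312, at 27.6 kb, and was likewise 27.7 kb in replicate 1 and 27.6 kb in replicate 2. The last 2 are bounded by strong clusters in all 3 lists, so their lengths hardly depend on the list.

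The lab end held the fewest GAF clusters. The first cluster found in both replicates began 96.4 kb from that end, at 2566444. Before it, the combined list had 2 clusters, with scores of 0.182 and 0.0887, replicate 1 had 2 with scores of 0.195 and 0.333, and replicate 2 had none. The bare stretch ran on below the window, to a cluster from 3R:2418165-2420328 that scored 1.10 in replicate 1 and 1.34 in replicate 2. Counting clusters found in both replicates, it measured 146.1 kb and was the 43rd longest of 5011 such stretches on the large arms. In replicate 1 alone it measured 131.4 kb and in replicate 2 alone 146.1 kb, at or above 99.2% and 99.4% of the gaps of those lists. With all combined clusters it fell to 83.2 kb, since the weak cluster at 2503554 divided it. The files do not record which parts of it allow unique alignment. This stretch was singled out after the values were seen.

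At the Antp end the last cluster inside the window was that from 3R:2829264-2831314, 8.69 kb short of the edge. The next beyond it, from 3R:2861917-2864551, had a combined score of 3.69 and lay 21.9 kb outside the window, so it is no member. No cluster of any list crossed an edge of the window.

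Across the middle and the Antp side, strong and weak clusters were interspersed. From 3R:2635384-2645676, 3 combined clusters filled 97.4% of 10.3 kb, with gaps of 32 and 236 bp between them. The middle one of these, at 0.343, was found in neither replicate, and the replicates left 1547 and 2690 bp free there. The longest stretch of the complex without a strong cluster between 2 strong ones was from 3R:2720344-2783183, at 62.8 kb. It held 5 weak clusters with scores from 0.150 to 0.811, of which 3 were found in both replicates and 2 in neither.

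In bins of 10 kb counted from the lab end, 17 of 37 bins had no combined cluster, 19 had none in replicate 1 and 21 had none in replicate 2. The share of empty bins on the large arms is not given here, so these counts cannot be called unusual. The fullest bin began 170 kb from the lab end in all 3 lists and was covered to 56.8% in the combined list, 56.5% in replicate 1 and 52.9% in replicate 2. The lab side of the midpoint held 9 combined clusters and the Antp side 13. Replicate 1 had 8 and 10, and replicate 2 had 5 and 10. Strong clusters were split evenly, with 5 on each side in the combined list.

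A region of depletion, with a score of -0.120, was listed in the complex from 3R:2551491-2553023 in the combined list, which holds 210 such regions. Replicate 1 listed a weakly enriched cluster at the same place, from 3R:2551707-2553015 with a score of 0.195, and replicate 2 listed nothing there. The replicate lists hold 12 and 8 depleted regions in all, and none of them lay in the complex.

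As a whole the complex was near the middle of the large arms in its number of clusters. The combined list gave 59.5 clusters per Mb, against 52.2 on the rest of the large arms and 51.4 on the rest of 3R. The replicates gave 48.6 and 40.5 per Mb, or 44.6 ± 5.7 (SD, n = 2), against 46.4 and 46.7 on the rest of the large arms. Clusters covered 13.7% of the complex in the combined list, 12.1% in replicate 1 and 10.5% in replicate 2, against 14.0%, 12.6% and 12.7% elsewhere on those arms. The combined density was above the rest and that of replicate 2 below it, so the direction for density depends on the list. The covered share was below that of the rest of the large arms in every list.

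The arms were also laid out in 318 windows of the same length that do not touch the complex. Of these, 191 had fewer combined clusters than the 22 of the complex, 16 had as many, and the median was 19.5. Replicate 1 had 162 windows with fewer than its 18 clusters, and replicate 2 had 108 with fewer than its 15. By covered length, 160 of 318 windows had less than the 50.6 kb of the combined list. These ranks are descriptions of the arms and carry no test.

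**Figure D4:**
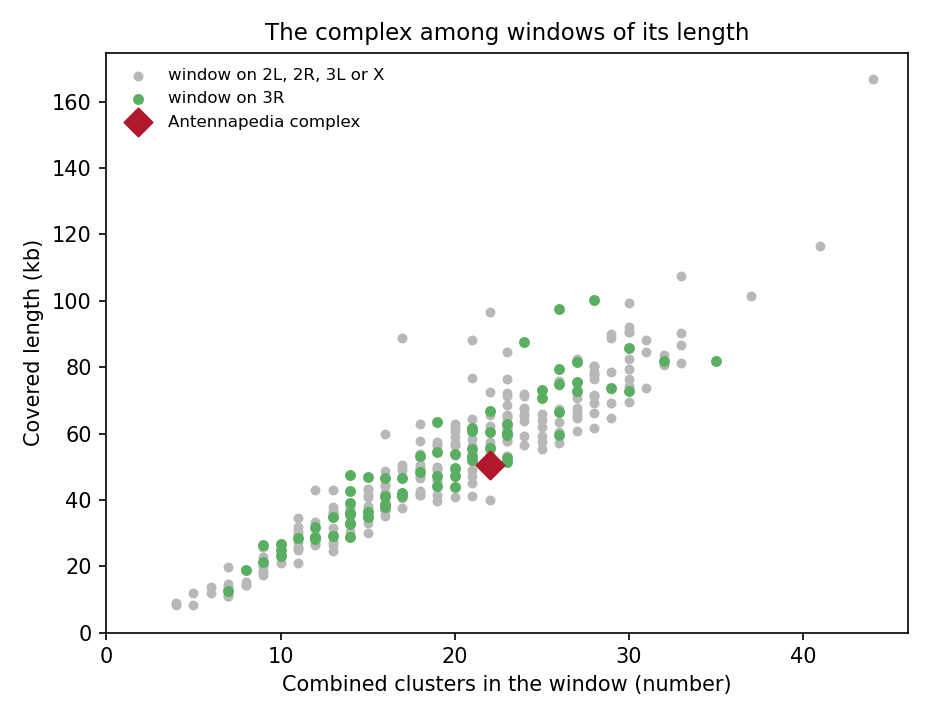
Covered length in kb (y axis) against the number of combined clusters (x axis) in 318 windows of the length of the complex on the 5 large arms, with those on 3R in green. The complex, the red diamond at 22 clusters and 50.6 kb, lies inside the cloud, close to its medians of 19.5 clusters and 50.4 kb.

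The median score differed between the lists. Across the complex it was 0.745 for the combined list, 1.39 for replicate 1 and 1.92 for replicate 2. Elsewhere on the large arms these medians were 1.09, 1.33 and 1.39. A lower median score was found in 76 of 318 windows for the combined list, in 168 for replicate 1 and in 276 for replicate 2. With the 15 combined clusters found in both replicates alone, the median of the complex was 1.76 and 224 windows had a lower one. The lists differed in the places they held at the 7 weak combined clusters without support in both replicates. They also differed at the 3 weak clusters of replicate 1 alone, of which 2 overlap clusters among those 7. The 10 strong places were in every list. Scores at the 15 shared places differed too, with replicate 2 higher at 11 of them. Which of these differences set the medians apart was not tested.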

How the data were processed

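GAF ChIP-seq in 2 replicates gave 1 deposited region list each, and the series adds 1 combined list. Reads were aligned with Bowtie 0.12.7, per the submitters' processing notes, and coordinates are on FlyBase release 5, per the file headers. No source used here names the region caller, its thresholds or the way of combining. The deposited score of each region is the authors' own, and its scale is not stated. The files give no read counts, so depth is unknown. The labels cross the inputs, pairing input 1 with ChIP replicate 2 and input 2 with ChIP replicate 1, which could not be checked.

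Regions with a score above 0 that share at least 1 bp with the locus were taken. Overlap meant at least 1 shared bp, and a pair was 1 to 1 where each cluster overlapped no other. Shares have exact 95% Clopper-Pearson intervals (scipy 1.17.1). Windows were laid end to end from the start of each arm. A planned count of the GAGAG motif in member promoters was not run, as no promoter sequence was used here. Routines were tested on simulated data. A single condition with 2 replicates allows no test between conditions, so no p-value was computed. Described singly were the 10 strongest shared clusters, the 3 widest, the 3 longest gaps, the 3 largest replicate differences, all unshared clusters, those at the edges and depleted regions. The locus, lists and alternatives were chosen with earlier results of these data known. Alternatives were each replicate list alone, clusters that reach their list's median score, clusters wholly inside the locus, a reciprocal overlap of 50% and windows sliding by 10 kb.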

Additional observations from a re-analysis of the deposited data

How the results depend on the processing

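Of 46 alternative values for 13 results, 23 stayed within the spread between replicates, the counting interval, 1.5 times a count or, for Spearman's rho, 0.05, and 23 moved. Whether a cluster lay wholly inside the locus changed no cluster number, median or covered share. A reciprocal overlap of 50% changed none of the results it was tried on.

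With clusters at or above the list median score alone, the complex held 10 combined clusters, 9 of them with such a cluster in both replicates. Their median score was 1.96, their median width 2422 bp, their covered share 8.31% and their longest gap 62.8 kb. Then 100% of replicate 1 clusters were overlapped by replicate 2 (83.3% with every cluster) and 90% of replicate 2 clusters by replicate 1 (100% with every cluster).

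With each replicate list alone in place of the combined list, the number of clusters was 15 to 18. The median score was 1.39 to 1.92, the median width 2186 to 2290 bp and the covered share 10.5 to 12.1%. The share of windows with fewer clusters was 34.0 to 50.9% (60.1% in the combined list) and that with less covered length 36.5 to 47.5% (50.3%). The longest gap was 41.10 to 41.12 kb, and 41.08 kb in the union of both lists.

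Further alternatives were chosen after the data were seen. The stretch across the lab end was 131.4 to 146.1 kb in the replicate lists and 83.2 kb with all combined clusters. The share of windows with a lower median score was 23.9% in the combined list, 52.8 to 86.8% in the replicates and 70.4% with shared clusters alone. The cause was not tested. No paired analysis was possible because the inputs were not analysed and a single ChIP condition has no second group to pair with. Without read counts, weak enrichment below the authors' threshold cannot be seen.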
